A study of Saccharomyces cerevisiae with 55 samples.

Results

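The genes described here encode the nuclear subunits of yeast oxidative phosphorylation: succinate dehydrogenase (complex II), the cytochrome bc1 complex (complex III), cytochrome c, cytochrome c oxidase (complex IV) and ATP synthase (complex V). They were taken by gene symbol from the annotation of the arrays. Of the 38 genes listed, 36 had a probe, 1 each, among 5540 genes measured, and ATP18 and ATP19 were not analysed here. The 36 members comprise 4 genes of complex II, 9 of complex III, 2 of cytochrome c, 9 of complex IV and 12 of complex V. A value was present in every sample for 35 of them, and 1 value in all was missing. The 7 subunits encoded in mitochondrial DNA had no named probe and were not analysed here.

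RNA of budding yeast (Saccharomyces cerevisiae) was compared on 2-colour arrays, with total RNA of an H4 mutant strain in one channel and of a parental strain in the other. The mutants carried arginine in place of lysine at positions 5, 8, 12 and 16 of histone H4 in each of the 15 possible combinations, written K5R to K5R/K8R/K12R/K16R (the quadruple mutant). Arginine keeps the positive charge of lysine and cannot be acetylated. The 55 arrays made 54 samples, because a technical pair of the quadruple strain MDY487 was averaged, and they covered 30 mutant strains. The reference was the parental strain MDY453 in 34 samples and MDY470 in 20.

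There were 3 samples each of K5R, K8R, K12R, K16R, K5R/K12R, K8R/K12R and K5R/K8R/K16R. There were 4 samples each of K5R/K8R, K5R/K16R, K8R/K16R, K12R/K16R, K5R/K12R/K16R, K8R/K12R/K16R and the quadruple mutant, and 5 of K5R/K8R/K12R. Most mutants were measured in 2 strains, K8R/K12R in 1 and the quadruple mutant in 3. K5R/K12R/K16R and the quadruple mutant were run only with MDY453 as reference, and K8R/K12R only with MDY470, so in these 3 mutants the choice of parental strain and the mutant cannot be told apart. The sources used here do not give the growth conditions or the remaining genotype of the strains.

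Complexes II, III and IV pass electrons from succinate and ubiquinol to oxygen, with cytochrome c as the carrier between complexes III and IV, and complexes III and IV pump protons across the inner mitochondrial membrane. Complex V uses the proton gradient to make ATP. In budding yeast the genes of this pathway are repressed while glucose is fermented and are induced on respiratory carbon sources, largely through the HAP complex, whose subunit Hap4 is its activator. The set holds isoform pairs: COX5A and CYC1 are the forms of aerobic cells, and COX5B and CYC7 are the forms favoured when oxygen is low.

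Values are log2 ratios after each array was centred on its median, and values above 0 likely mark RNAs that were higher in the mutant, since every array had a parental strain as its reference. The sources used here do not give the dyes or the direction. A log2 ratio of 1 is a 2-fold difference. Total RNA of a culture was measured relative to the other genes of the array, so more of an RNA in every cell and more cells with that RNA cannot be told apart. Tests were made with limma on all genes, with the strain as a random block and Benjamini-Hochberg adjustment, and a gene is said to have risen or fallen only at an adjusted p under 0.05. A test of a mutant against 0 does not include how much parental samples vary among themselves. Where the labels do not name separate cultures, the p-values measure only the spread between these samples, which may be technical.

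The members were near the parental level in the single mutants and high in the quadruple mutant. The median over the 36 members in a sample was 0.07 ± 0.07 (SD, n = 12) with 1 substitution, 0.18 ± 0.10 (n = 22) with 2, 0.44 ± 0.20 (n = 16) with 3 and 1.20 ± 0.21 (n = 4) with 4. The 4 quadruple samples lay between 0.94 and 1.39, above the highest of the other samples, 0.89 in K5R/K12R/K16R. The samples with 1 and 2 substitutions overlapped, with ranges of -0.04 to 0.16 and 0.01 to 0.35.

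**Figure D1:**
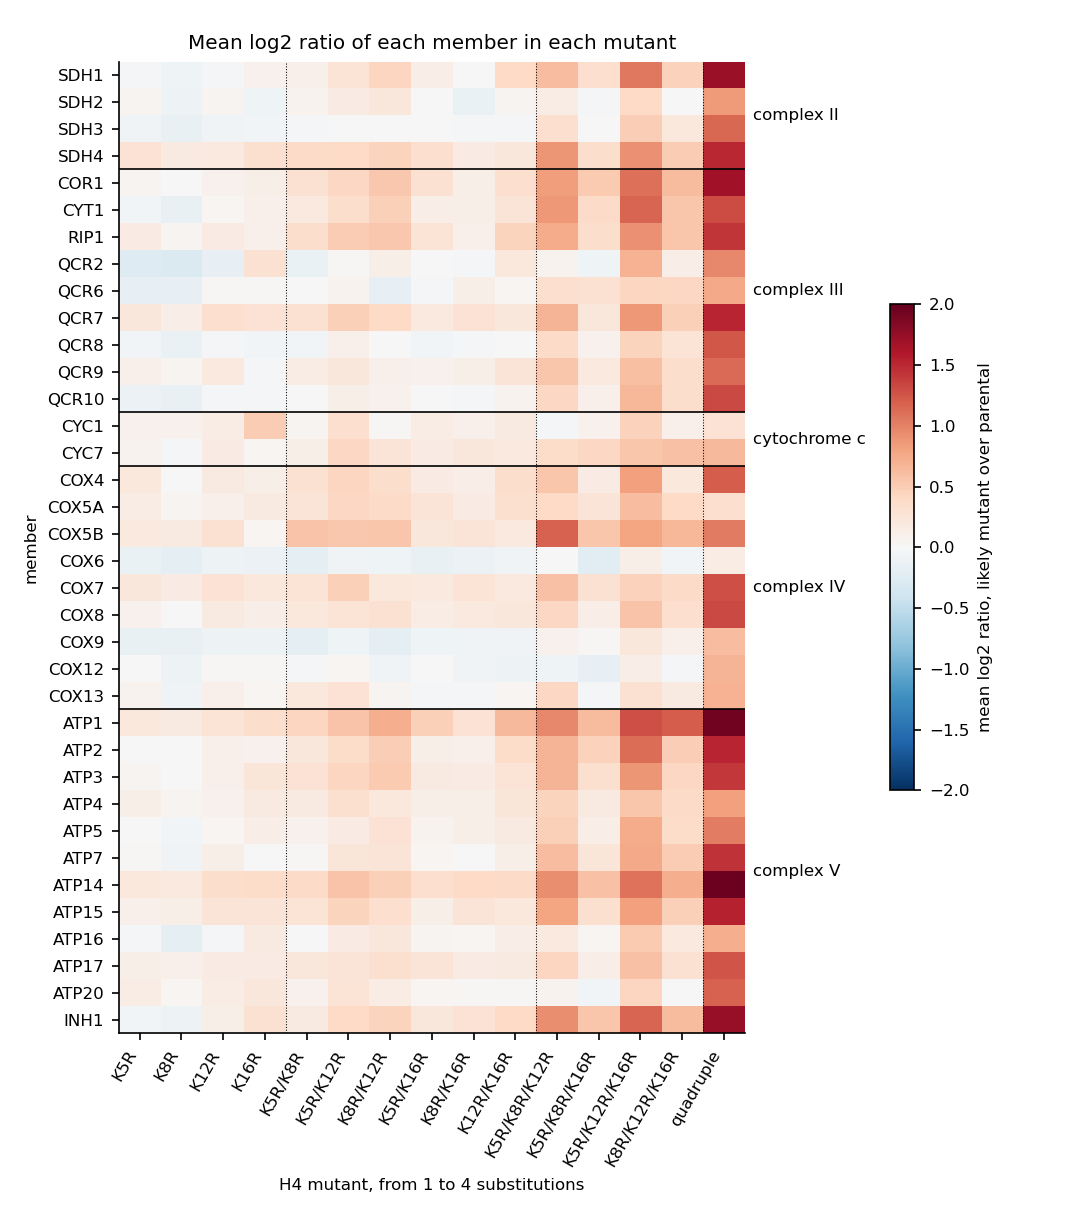
Mean log2 ratio (colour, likely mutant over parental) of each of the 36 members (rows, by complex) in each of the 15 mutants (columns, from 1 to 4 substitutions). The column of the quadruple mutant is the highest for 33 of the 36 members, and COX6 has the lowest mean there, 0.15.

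No member passed the test in K5R, K8R or K12R, where 0.523%, 0.199% and 1.79% of all genes rose. At an unadjusted p under 0.05 there were 2, 3 and 5 of the 36 members, shares below the 16.9%, 13.1% and 18.3% of all genes. In K16R 4 of the 36 members rose, a share near the 8.61% of all genes. They were ATP3 and ATP14 of complex V, SDH4 of complex II, and CYC1. Among the double mutants 3 members rose in K8R/K16R, a share near the 9.12% of all genes. There were 8 in K5R/K16R (background 10.2%), 15 in K8R/K12R (10.0%) and 23 in K5R/K12R (14.8%). K5R/K8R had 10 (10.4%) and K12R/K16R 13 (12.7%). Among the triple mutants 15 members rose in K5R/K8R/K16R (19.2%), 27 in K8R/K12R/K16R (23.5%), 29 in K5R/K8R/K12R (29.8%) and 33 in K5R/K12R/K16R (28.8%). In the quadruple mutant 35 of 36 members rose, against 37.1% of all genes. No member fell in the quadruple mutant, where 36.6% of all genes fell, or in K5R/K8R/K12R (30.2%), K5R/K12R/K16R (28.0%), K8R/K12R/K16R (23.1%) or K5R/K8R/K16R (21.1%).

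The position of the members among all genes needs no threshold. The median member stood at percentile 69.3 of all genes in K5R, 51.7 in K8R, 78.3 in K12R and 75.7 in K16R. Among the double mutants it ran from 77.2 in K8R/K16R, 79.3 in K5R/K16R, 86.9 in K5R/K8R and 88.2 in K12R/K16R to 91.7 in K8R/K12R and 92.8 in K5R/K12R. The triple mutants stood at 81.3 in K5R/K8R/K16R, 88.7 in K5R/K8R/K12R, 90.3 in K8R/K12R/K16R and 94.1 in K5R/K12R/K16R, and the quadruple mutant at 96.1. By this measure K5R/K12R and K8R/K12R were above 3 of the 4 triple mutants, which is not the order of the counts. In the quadruple mutant 28 of the 36 members stood at or above percentile 90. The spread of all genes on an array also grew with the number of substitutions: its median SD was 0.173 with 1, 0.272 with 2, 0.422 with 3 and 0.668 with 4. Rescaling an array leaves percentiles unchanged but changes the size of a log2 ratio. Whether measurement noise moves the percentiles where the spread is small was not tested.

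The rise per added substitution was tested from differences between mutant means, with the mutants of one level weighted equally; these contrasts were chosen after the values were seen. From 1 to 2 substitutions 9 members rose (4.33% of all genes) with a median difference of 0.10. From 2 to 3 substitutions 25 rose (24.2%) with a median of 0.26, and from 3 to 4 substitutions 32 rose (30.0%) with a median of 0.79. For 26 members the last step exceeded the step before it (18.7%), by a median of 0.49. The members that did not rise from 3 to 4 were CYC1 (0.14 ± 0.11, SE), CYC7 (0.16 ± 0.10), COX6 (0.18 ± 0.09) and COX5A (-0.08 ± 0.08). With arrays scaled to one spread the last step had a median of 0.19 and 11 members passed, and with quantile normalization 9 passed. The excess of the last step passed in 4 members with scaled arrays, in 2 with quantile normalization and in 8 among the arrays against MDY453 alone. Shares of all genes were not kept for these alternative fits.

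**Figure D2:**
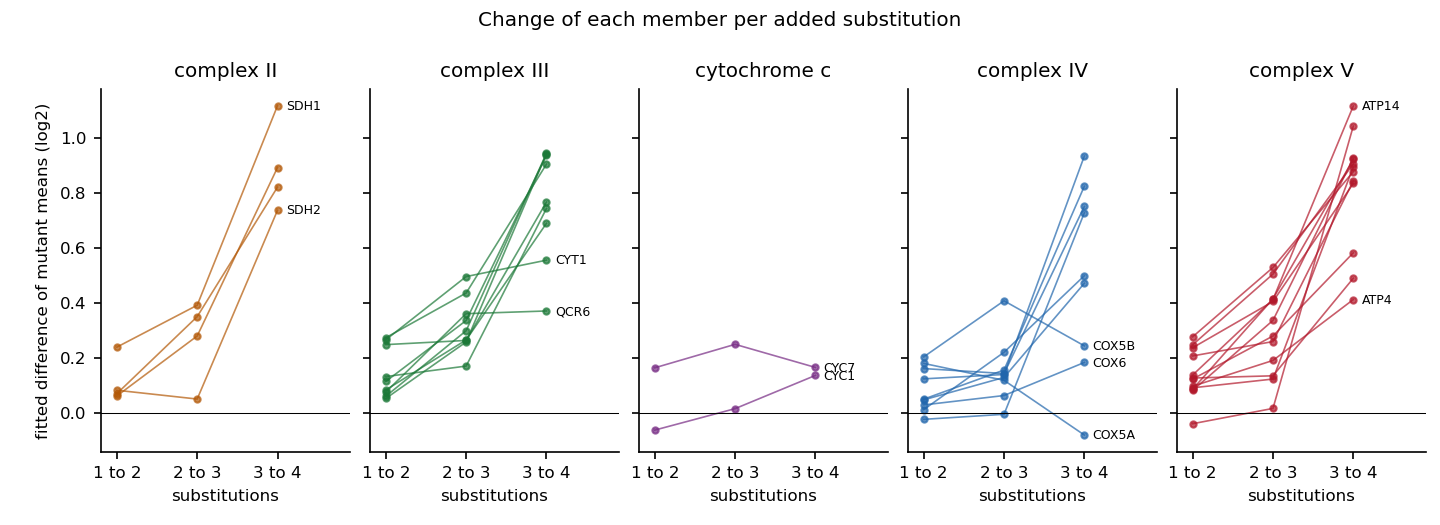
Fitted difference of mutant means (log2, vertical axis) of each member for each added substitution (horizontal axis), by complex, 1 line per gene. In complexes II, III and V every member rose from 3 to 4 substitutions, whereas COX5A, COX6, CYC1 and CYC7 did not pass the test there.

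Of the triple mutants, K5R/K12R/K16R was the highest. Among the 14 mutants other than the quadruple, it had the highest mean in 31 members and K5R/K8R/K12R in 3. In 22 members K5R/K12R/K16R exceeded the mean of the other 2 triple mutants with K16R (8.16% of all genes), with a median difference of 0.40 over the members; this contrast was chosen after the values were seen. With quantile normalization 2 members passed, with arrays scaled to one spread 12, and among the arrays against MDY453 alone 9. Shares of all genes were not kept for these alternative fits. Leaving out 1 sample at a time gave 15 to 25. In K5R/K12R/K16R the member medians were 0.56, 0.485 and 0.89 in the samples of strain MDY467. Strain MDY484 had 1 sample, at 0.65.

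**Figure D3:**
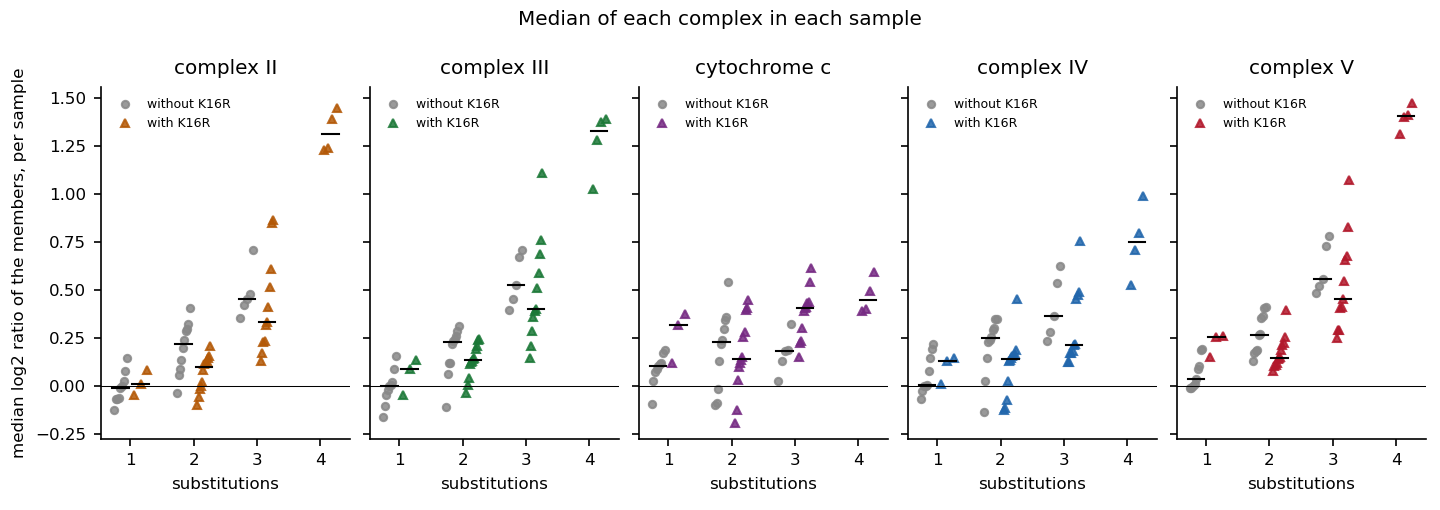
Median log2 ratio of the measured members of each complex in each sample (vertical axis) by the number of substitutions (horizontal axis), with and without K16R, horizontal lines marking medians. With 4 substitutions the samples of complex V lie between 1.32 and 1.48 and those of complex IV between 0.53 and 0.99.

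Complex II, which oxidises succinate and feeds electrons to ubiquinone, rose in all 4 subunits in the quadruple mutant. SDH1 encodes the flavoprotein that holds the catalytic site. Its log2 ratio was 1.70, 1.44, 2.05 and 1.74 in the 4 quadruple samples, 0.96, 0.96, 1.10 and 1.20 in K5R/K12R/K16R, and 0.49, 0.59, 0.64, 0.53 and 0.82 in K5R/K8R/K12R. The 3 mutants did not overlap, and all quadruple samples were above all other samples. The fitted values were 1.73 ± 0.08 (SE, adjusted p = 2.4e-24), 1.07 ± 0.09 and 0.61 ± 0.08. In the single mutants SDH1 lay between -0.18 and 0.16. From 3 to 4 substitutions it rose by 1.12 ± 0.09, and no member had a larger fitted step.

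SDH2, the iron-sulphur subunit, took a different course. It was 0.92, 0.99, 0.62 and 0.90 in the quadruple samples, whereas 0.30, 0.28, 0.48 and 0.53 were measured in K5R/K12R/K16R and -0.24 to 0.35 in K5R/K8R/K12R. In K8R/K12R/K16R and K5R/K8R/K16R its 7 samples lay between -0.19 and 0.10. Only K8R/K12R (0.23 ± 0.08), K5R/K12R/K16R (0.41 ± 0.07) and the quadruple mutant (0.85 ± 0.06, adjusted p = 1.57e-16) passed the test, and all quadruple samples were above all others. The step from 2 to 3 substitutions was 0.05 ± 0.05 (adjusted p = 0.382) and that from 3 to 4 was 0.74 ± 0.07 (adjusted p = 6.56e-12). The membrane anchors SDH3 and SDH4 reached 1.15 ± 0.07 and 1.49 ± 0.07 in the quadruple mutant. SDH4 alone of complex II rose in K16R (0.33 ± 0.08).

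Complex III, which moves electrons from ubiquinol to cytochrome c, rose in all 9 measured subunits in the quadruple mutant, from 0.73 in QCR6 to 1.68 in COR1. COR1 encodes a core protein of the matrix side. Its values were 1.67, 1.49, 1.93 and 1.60 in the quadruple samples, 0.97, 1.04, 1.13 and 1.27 in K5R/K12R/K16R and 0.63 to 1.05 in K5R/K8R/K12R. The quadruple samples lay above all others, and the 2 triple mutants overlapped. COR1 rose in 10 of the 15 mutants, and at each added substitution: by 0.27 ± 0.05 from 1 to 2, by 0.44 ± 0.05 from 2 to 3 and by 0.90 ± 0.08 from 3 to 4 substitutions.

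QCR2, the other core protein, differed from COR1 in the mutants with few substitutions. It was -0.30, -0.41 and -0.04 in K5R, -0.37, -0.09 and -0.42 in K8R and -0.32, -0.22 and 0.06 in K12R, but 0.31, 0.16 and 0.46 in K16R. All 3 K16R samples were above all 9 samples of the other single mutants. None of the 4 single mutants passed the test against 0 (K16R 0.30 ± 0.12, adjusted p = 0.0735). QCR2 rose in K5R/K12R/K16R (0.70 ± 0.11) and in the quadruple mutant (0.95 ± 0.10, samples 1.10, 0.79, 0.85 and 1.11) and in no other mutant. The difference between its K16R effect and the mean effect of the other 3 substitutions was 0.21 ± 0.09 (adjusted p = 0.0872).

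QCR7, a small subunit, was 1.77, 1.37, 1.26 and 1.69 in the quadruple samples, above all others. In K8R/K12R/K16R it was 0.39, 0.34, 0.29 and 0.91, so 1 sample stood above the other 3. Cytochrome c1 (CYT1) and the Rieske iron-sulphur protein (RIP1), redox subunits of the complex encoded in the nucleus, reached 1.30 ± 0.08 and 1.41 ± 0.09 in the quadruple mutant. For CYT1 the lowest quadruple sample, 1.18, was below the highest other sample, 1.40. CYT1 was also the member with the largest excess of K5R/K12R/K16R over the other K16R triples, 0.71 ± 0.11.

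Cytochrome c, the mobile carrier between complexes III and IV, had low values in the quadruple mutant compared with complexes II, III and V. CYC1, the main form in aerobic cells, was 0.40, 0.18, 0.33 and 0.27 in the quadruple samples (0.29 ± 0.09, adjusted p = 0.00491). It was highest in the K16R single mutant, with 0.57, 0.31 and 0.63 (0.49 ± 0.11, adjusted p = 0.000976). The values 0.57 and 0.63 are of strain MDY458, run against MDY453 and MDY470 in turn, and 0.31 is of MDY475 against MDY470. The K16R samples overlapped those of K5R/K12R/K16R, which were 0.45, 0.34, 0.59 and 0.45. In K5R/K8R/K12R CYC1 was 0.13, -0.13, -0.11, -0.03 and 0.01, below every K16R and every quadruple sample. CYC1 rose in 4 mutants, K16R, K5R/K12R, K5R/K12R/K16R and the quadruple mutant. Within 4 double mutants 1 sample was well above the others, 0.42 against -0.14 to 0.03 in K5R/K8R for example.

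CYC7, the form favoured at low oxygen, was 0.79, 0.63, 0.45 and 0.72 in the quadruple samples (0.64 ± 0.08, adjusted p = 3.89e-09). In K8R/K12R/K16R it was 0.54, 0.55, 0.59 and 0.67, which overlapped the quadruple samples. CYC7 did not pass the test in any single mutant, and its K16R samples of 0.07, -0.07 and 0.12 lay below all 3 of CYC1.

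Complex IV, which reduces oxygen, had lower values than complexes II, III and V in the quadruple mutant. Of its 9 measured subunits 8 rose there, with a median of 0.68, against 1.32 in complex II, 1.30 in complex III and 1.43 in complex V. The complex IV members ran from 0.14 ± 0.08 for COX6 (adjusted p = 0.133) to 1.29 ± 0.09 for COX8. The median of complex V exceeded that of complex IV in each of the 4 quadruple samples, by 0.41 to 0.89, and in each of the 16 samples with 3 substitutions, by 0.07 to 0.44. Complex III also exceeded complex IV in each of the 4 and each of the 16. Complex II exceeded it in each of the 4, by 0.46 to 0.71, and in 13 of the 16, the lowest difference being -0.21. With 1 substitution complex V was above complex IV in 9 of 12 samples, and complexes II and III in 3 of 12 each. No test was made of a median over a complex, and members of a complex are not replicates.

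COX6 encodes a supernumerary subunit of the matrix side. It was 0.22, 0.06, 0.04 and 0.26 in the quadruple samples and -0.32 to 0.26 in the triple mutants, apart from 1 sample of K5R/K12R/K16R at 0.51. It did not pass the test in any mutant and was the only member without a rise in the quadruple mutant. COX9, a small membrane subunit, was 0.76, 0.57, 0.36 and 0.75 in the quadruple samples (0.60 ± 0.09) and passed in no other mutant, with 0.21 ± 0.09 in K5R/K12R/K16R (adjusted p = 0.0602). COX12, another small subunit, was alike: 0.68 ± 0.10 in the quadruple mutant and no call elsewhere.

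COX13 encodes a subunit that is not needed for assembly of the enzyme. It was 0.99, 0.54, 0.48 and 0.80 in the quadruple samples and 0.63, 0.28, 0.37, 0.24 and 0.54 in K5R/K8R/K12R. These 2 mutants overlapped, and the difference was 0.29 ± 0.12 (adjusted p = 0.0443). COX8, a small membrane subunit, was 1.64, 1.13, 1.09 and 1.39 in the quadruple samples and at most 0.80 in the triple mutants. COX4 and COX7, subunits of the same enzyme, reached 1.18 ± 0.11 and 1.25 ± 0.13.

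COX5A and COX5B encode alternative forms of subunit V. COX5A was 0.39, 0.37, 0.53 and 0.03 in the quadruple samples and overlapped K5R/K8R/K12R (0.22 to 0.59) and K5R/K12R/K16R (0.50, 0.40, 0.81 and 0.75), the mutant in which its mean was highest. COX5B was 1.11, 1.18, 0.71 and 1.16 in the quadruple samples, and 1.37, 0.89, 1.33, 1.18 and 1.14 in K5R/K8R/K12R. These samples overlapped too. The difference of the quadruple mutant from K5R/K8R/K12R did not pass the test in either gene, with -0.04 ± 0.10 (adjusted p = 0.763) and -0.12 ± 0.11 (adjusted p = 0.434). By contrast 33 of the 36 members were higher in the quadruple mutant than in K5R/K8R/K12R (23.4% of all genes), by a median of 0.75, and COX6 was the other exception. Scaled to one spread 9 members passed that test, and with quantile normalization 4, with no share of all genes kept for these fits.

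The difference of COX5A minus COX5B within a sample was below 0 in 41 of 54 samples. It was -0.72, -0.81, -0.18 and -1.13 in the quadruple samples, a mean fitted value of -0.69 ± 0.11 (adjusted p = 4.25e-07). In K5R/K8R/K12R it was -0.76 ± 0.12 (adjusted p = 1.86e-07). K16R and K12R/K16R had positive fitted values that did not pass, 0.15 ± 0.13 and 0.18 ± 0.12. The K12R/K16R value rested on 1 sample of strain MDY481 at 0.66, the others lying between -0.09 and 0.03. Whether the probe of either gene also binds RNA of its relative was not tested.

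CYC1 minus CYC7 was below 0 in 35 of 54 samples. In the K16R single mutant it was 0.50 and 0.51 in strain MDY458 and 0.38 in MDY475, a fitted value of 0.46 ± 0.08 (adjusted p = 6.4e-05). K16R was the only mutant in which the difference was called above 0. It was called below 0 in K5R/K8R/K12R (-0.38 ± 0.07), K5R/K8R/K16R (-0.32 ± 0.08), K8R/K12R/K16R (-0.48 ± 0.08) and the quadruple mutant (-0.35 ± 0.07, adjusted p = 2.93e-05). The call in the quadruple mutant was lost with arrays scaled to one spread (-0.15) and with quantile normalization (-0.16).

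**Figure D4:**
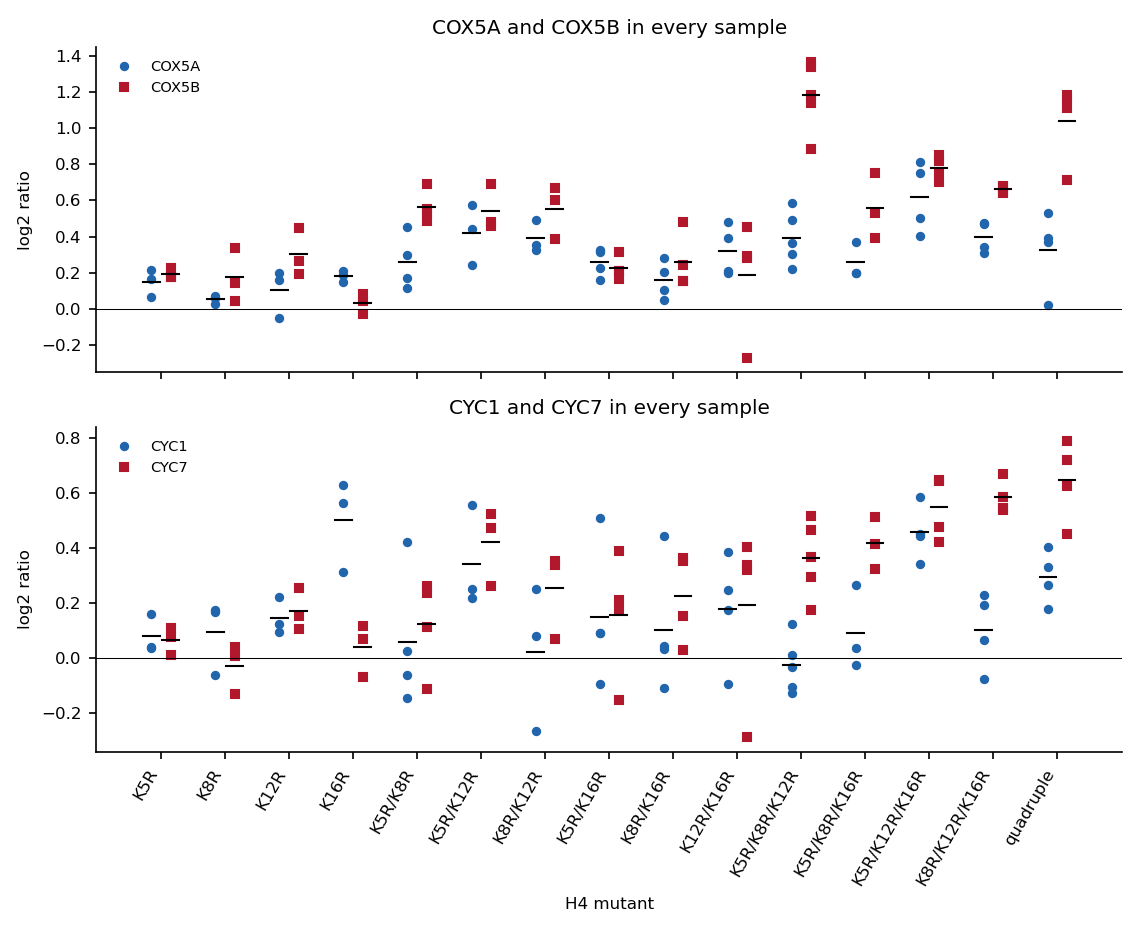
Log2 ratio (vertical axis) of COX5A and COX5B (upper panel) and of CYC1 and CYC7 (lower panel) in every sample of each mutant (horizontal axis), with short lines at the means. In the quadruple mutant COX5B lies between 0.71 and 1.18 and COX5A between 0.03 and 0.53, and in K16R the 3 CYC1 samples lie above the 3 CYC7 samples.

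Complex V rose in all 12 measured subunits in the quadruple mutant, from 0.73 in ATP16 to 1.95 in ATP14. The catalytic head, with subunits alpha (ATP1), beta (ATP2), gamma (ATP3), delta (ATP16) and epsilon (ATP15), had a median fitted value of 1.52 over 5 genes. The peripheral stalk that holds the head (ATP4, ATP5, ATP7 and ATP14) had 1.23, and the membrane subunits ATP17 and ATP20 had 1.25 and 1.16. ATP2 was 1.68, 1.45, 1.46 and 1.53 in the quadruple samples, 0.94, 1.06, 1.16 and 1.28 in K5R/K12R/K16R and 0.48 to 0.80 in K5R/K8R/K12R, without overlap between the 3 mutants. Its fitted value in the quadruple mutant was 1.52 ± 0.08 (adjusted p = 4.63e-22).

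ATP14, a stalk subunit, had the highest fitted value of any member in the quadruple mutant, 1.95 ± 0.09 or 3.86-fold. ATP1 followed with 1.93 ± 0.13. In K8R/K12R/K16R the ATP1 samples were 2.41, 0.73, 0.85 and 0.82, so its fitted value there, 1.32 ± 0.14, rests on 1 sample far above the others. Beside it, a mean of at least 1 outside the quadruple mutant was reached by COX5B in K5R/K8R/K12R and, in K5R/K12R/K16R, 7 members, ATP1 among them. In the quadruple mutant 24 of the 36 had a mean of at least 1.

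ATP20 encodes a membrane subunit that is needed for dimers of the enzyme. It was 1.35, 1.03, 0.88 and 1.43 in the quadruple samples, and -0.18 to 0.24 in the triple mutants other than K5R/K12R/K16R, where it was 0.30, 0.11, 0.63 and 0.69. All quadruple samples were above all others. From 1 to 3 substitutions its steps were -0.04 ± 0.06 and 0.02 ± 0.06, and the step from 3 to 4 was 1.04 ± 0.09 (adjusted p = 4.4e-13). The excess of the last step over the step before, 1.03 ± 0.13, was the largest of any member. ATP17, the other membrane subunit, had the steps 0.09 ± 0.06, 0.12 ± 0.06 and 0.89 ± 0.09.

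INH1 encodes the small protein that inhibits ATP hydrolysis by complex V. It was 1.83, 1.43, 1.65 and 2.08 in the quadruple samples (1.73 ± 0.09, adjusted p = 2.65e-21), 1.12, 0.88, 1.53 and 1.14 in K5R/K12R/K16R, and 0.66 to 1.35 in K5R/K8R/K12R. In K16R INH1 was 0.36, 0.20 and 0.36, which did not pass the test (0.30 ± 0.11, adjusted p = 0.0527).

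In 16 members every quadruple sample was above every other sample, against 6.66% of all genes. Where the 3 quadruple strains differed, MDY487 was the lowest by the median over the members, 0.94, with 1.11 in MDY469 and 1.37 in MDY486. That order did not hold in every complex. MDY487 was lowest in complexes III (1.03) and IV (0.53). It was above MDY469 in complex V, 1.42 against 1.32, and barely so in complex II, 1.24 against 1.23.

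Each substitution was also fitted as its own term over all 54 samples, in an additive model with a free intercept. The fit was not held to a log2 ratio of 0 without substitutions. Where effects differ between mutants, a term is a weighted mix of them. The members rose in 33 of 36 with K5R (20.5% of all genes), in 24 with K8R (19.4%), in 34 with K12R (26.0%) and in 26 with K16R (20.3%). None fell with any of the 4, whereas 18.4%, 18.1%, 24.4% and 19.0% of all genes fell. For the mean effect of the other 3 substitutions 35 members rose (32.3%), CYC1 being the exception at -0.03 ± 0.04 (adjusted p = 0.549). Of all genes 31.5% fell by that mean. The K16R effect was called in 3 of 4 members of complex II, 8 of 9 of complex III, 3 of 9 of complex IV (COX4, COX8 and COX9) and 11 of 12 of complex V. The mean of the other 3 substitutions was called in every member of these complexes. The median effects of K16R were 0.26, 0.30, 0.14 and 0.28 in complexes II, III, IV and V, and those of the mean of the other 3 were 0.35, 0.35, 0.20 and 0.38.

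**Figure D5:**
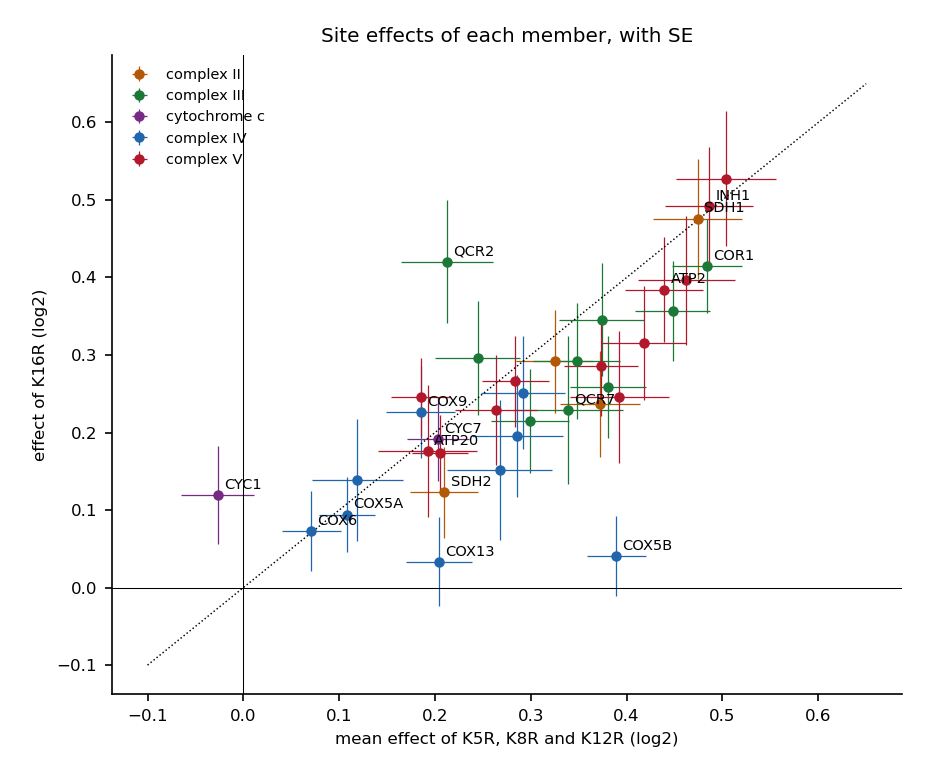
Effect of K16R (vertical axis, log2) against the mean effect of K5R, K8R and K12R (horizontal axis, log2) for each member, coloured by complex, with standard errors. COX5B lies farthest below the dotted line of equal effects, with a K16R effect of 0.04 and a mean effect of 0.39, and CYC1 is the only member left of 0 on the horizontal axis.

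The count of members that rose with K16R differed between sets of arrays. Among the arrays against MDY453 alone 20 members rose with K16R (median 0.29), and among those against MDY470 alone 2 rose (median 0.06, 24 of 36 positive). The sets differ in parental strain, in the number of samples (34 and 20) and in the mutants they hold, since the MDY470 arrays include neither the quadruple mutant nor K5R/K12R/K16R, and these cannot be told apart. Without the quadruple mutant 21 members rose, with a median of 0.15, and the mean of the other 3 substitutions was called in 31. With arrays scaled to one spread and with quantile normalization 15 members rose with K16R, and 1, COX5B, fell. A fit with no intercept gave 7 members that rose with K16R. The share of all genes called was not kept for these alternative fits, so these counts cannot be read against it.

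The mutant means can also be set against each other in pairs whose H4 substitutions differ by K16R. Adding K16R to K5R, K8R, K12R, K5R/K8R and K8R/K12R changed the mean log2 ratio of a member by a median of 0.07, 0.10, 0.04, 0.03 and 0.08 over the members. Added to K5R/K12R the median difference was 0.37, with 35 of 36 members above 0, and added to K5R/K8R/K12R it was 0.72, with 34 of 36. The 2 mutants of a pair also differ in their reference strains: K8R/K12R had 0 arrays against MDY453 and K8R/K12R/K16R had 3 of 4, and K5R/K12R had 1 of 3 where K5R/K12R/K16R had 4 of 4. In these pairs K16R and the parental strain cannot be fully told apart. A fit with K16R and the number of other substitutions as interacting terms gave a positive interaction in 34 of 36 members with a median of 0.16. The interaction passed the test in SDH2 (0.24 ± 0.07, adjusted p = 0.0241) and ATP20 (0.32 ± 0.10, adjusted p = 0.0427), against 3.77% of all genes, and 15 members had an unadjusted p under 0.05 (20.9% of all genes). This fit was not repeated with other scalings or without the quadruple mutant.

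K16R and the mean of the other 3 substitutions differed in 2 members. COX5B rose with K5R (0.39 ± 0.05), K8R (0.37 ± 0.05) and K12R (0.41 ± 0.05), whereas its K16R effect was 0.04 ± 0.05, a difference of -0.35 ± 0.06 (adjusted p = 4.5e-06). COX13 differed by -0.17 ± 0.06 (adjusted p = 0.0482). Of all genes 11.4% were lower and 8.09% higher by this contrast, and no member was higher. In the pairs, COX5A minus COX5B changed by 0.05 ± 0.07 with K16R and by -0.28 ± 0.04 with the mean of the other 3, a difference of 0.33 ± 0.08 (adjusted p = 0.00145). CYC1 minus CYC7 changed by -0.07 ± 0.05 and -0.23 ± 0.03, a difference of 0.16 ± 0.06 (adjusted p = 0.0363).

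K8R had a smaller effect than K5R and K12R in value, but not by the test. All 36 members had a K8R effect below the mean of K5R and K12R, with a median difference of -0.16. No member passed, with 0.0181% of all genes higher and 0.271% lower by limma, and 15 members had an unadjusted p under 0.05 (8.57% of all genes). This contrast was chosen after the values were seen. COX5B was among the least different, -0.03 ± 0.06, and SDH1 among the most, -0.27 ± 0.09 (adjusted p = 0.255).

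Other genes of the pathway were counted from lists, to be read against all genes: in the quadruple mutant 37.1% rose and 36.6% fell, with K16R 20.3% rose, and with the mean of the other 3 substitutions 32.3% rose. All 6 genes for NADH dehydrogenases and other electron donors rose in the quadruple mutant, 5 with K16R and 6 with the mean of the other substitutions. NDI1, the internal NADH dehydrogenase that takes the place of complex I in this yeast, was 0.94 ± 0.06 in the quadruple mutant, and GUT2, the mitochondrial glycerol-3-phosphate dehydrogenase, 1.24 ± 0.09. Among the carriers, MIR1 (phosphate) was 2.04 ± 0.10 and PIC2 (copper and phosphate) 1.90 ± 0.09. The ADP/ATP carrier AAC1 was 1.46 ± 0.09 and AAC3, the form of anaerobic cells, fell by 0.41 ± 0.09. MIR1 and AAC3 are the ends of the list and were chosen after their values were seen.

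Of 9 genes for the HAP complex and oxygen regulators 4 rose and 3 fell in the quadruple mutant, shares near those of all genes (37.1% and 36.6%). HAP4 was 1.80 ± 0.07 in the quadruple mutant, 0.51 ± 0.06 with K16R and 0.59 ± 0.04 with the mean of the other 3. HAP5, a DNA-binding subunit of the same complex, was -0.75 ± 0.06 in the quadruple mutant. The RNAs of these 2 subunits moved in opposite directions, and their part in the members' result was not tested.

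Assembly factors were counted by complex. In the quadruple mutant all 3 measured complex II factors and all 9 complex III factors rose, with medians of 0.76 and 0.28. Of 25 measured complex IV factors 15 rose and 3 fell, and of 12 complex V factors 4 rose and 6 fell, against 37.1% and 36.6% of all genes. SDH5, which attaches the flavin to SDH1, was 1.21 ± 0.08, and CYT2, the haem lyase of cytochrome c1, 1.19 ± 0.07. COX20, a chaperone for a mitochondrially made subunit, was 0.94 ± 0.06. CYC3, the haem lyase of cytochrome c, was 1.13 ± 0.08, a larger log2 ratio in value than that of CYC1 or CYC7; this difference was not tested. NCA3, a gene linked to expression of mitochondrial ATP synthase subunits, was 1.55 ± 0.08 in the quadruple mutant, 0.74 ± 0.08 with K16R and 0.17 ± 0.05 with the mean of the other 3.

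Counts for haem synthesis, ubiquinone synthesis and hypoxic genes are set against the 37.1% of all genes that rose and the 36.6% that fell in the quadruple mutant. Of 8 haem genes 2 rose and 4 fell in the quadruple mutant, with HEM3 at -0.53 ± 0.06 and HEM1 at -0.50 ± 0.06. Of 10 measured ubiquinone genes 4 rose and 2 fell, with COQ8 at -0.71 ± 0.06 and COQ4 at 0.42 ± 0.06. Of 10 hypoxic genes, which include COX5B and CYC7, 4 rose, near the share of all genes, and 1 fell, with a list median of -0.01. COX5B, at 1.03, was the highest gene of that list.

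General stress genes moved with the members. All 15 rose in the quadruple mutant (37.1% of all genes), with a list median of 1.74. The list mean per sample was 0.03 to 0.35 with 1 substitution, 0.21 to 0.76 with 2, 0.86 to 1.63 with 3 and 1.79 to 2.20 with 4. Its part in the result was not tested. The 7 genes specific to mating type a had a list mean of -3.19 to -1.24 in the 30 samples with K16R and -0.09 to 0.37 in the 24 others. All 7 fell with K16R (19.0% of all genes). Of the 5 alpha-specific genes 3 rose with K16R (20.3%) and 1 fell, near the share of all genes. The part of this difference in the K16R effect on the members was not tested.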

How the data were processed

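The authors deposited a log2 ratio per probe and array. Base 2 was inferred from the largest size, 6.64, which is log2 of a ratio of 100. The sources used here do not give dyes, direction, background correction or normalization. Values at the ratio limit (43 in named probes) were treated as missing, 1150 of 6720 probes were dropped for lack of a gene name, arrays were centred on their medians (-0.0704 to 0.0537 before), and probes of a gene were averaged. limma 3.58.1 (R 4.3.3) fitted 5540 genes and 2 pair differences, in an additive model of the 4 substitutions with an intercept, a model of mutant means and an interaction model, with the strain as a random block (correlations 0.346, 0.205 and 0.332). On simulated data the K16R fit recovered 95% of log2 changes of 0.25 and 100% of 0.5, with 12 false calls. There, 100 of 5540 genes were given a change of each size, whereas in the measured data 20.3% rose and 19.0% fell with K16R. Whether the recovery and the false calls are alike in the measured data was not tested. Spot intensities were not used here; the numbers of arrays and of strains limit the precision.

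The members and gene lists were chosen with earlier results of these data known. Named with full values were COX5A, COX5B, CYC1, CYC7, INH1 and, in each complex, the members with the highest and lowest moderated statistic for K16R and for the mean of the other substitutions; per other list, up to 2 genes by that statistic. Genes named beyond these were chosen after their values were seen. Alternatives included other scalings, filters, blocks and sample sets. The planned search of promoter letters was not run, since no promoter sequence was at hand. Some titles carry a bare number in brackets, and titles without one were treated as alike. Residuals of same-numbered samples of different mutants against the same parental strain had a median correlation of 0.0287 (-0.555 to 0.700). Of these 577 pairs 203 were above 0.1, and of 135 pairs with different numbers 27 were. The biological replicate numbers that some titles also carry were not tested, nor was a batch shared by samples.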

Additional observations from a re-analysis of the deposited data

Results flagged for a closer look

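In mutants with 4 or 5 samples, 1 sample stood apart from the rest in 14 of 176 groups of named members, pair differences and complex medians. Chance gives about 1 in 20 for a group, but the groups share samples and genes and are not independent. The log2 ratio of COX5B was 0.712 in quadruple replicate 3 (strain MDY487), and 1.11 to 1.18 in the other 3. COX6 was 0.515 in K5R/K12R/K16R replicate 3 and -0.0219 to 0.0183 in the others. In K8R/K12R/K16R replicate 4, QCR7 was 0.911 (others 0.289 to 0.389) and the complex IV median 0.474 (others 0.172 to 0.213). K5R/K12R/K16R replicate 3, K8R/K12R/K16R replicate 4 and K5R/K8R/K12R replicate 5 carry the same biological replicate number in their titles. Each was the highest of its mutant by the median over the members, at 0.892, 0.494 and 0.670. Other samples with that number were the highest in some mutants, but not in K5R/K16R or K8R/K16R. A shift shared by these samples was not tested. SDH1 was 0.124 in K8R/K16R replicate 3 and -0.0420 to -0.0247 in the others. COX5A minus COX5B was -0.0972 in K5R/K8R replicate 1 and -0.389 to -0.357 in the others.

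In K5R/K16R the complex II median was -0.0596 in replicate 2 (others 0.118 to 0.146), the complex III median 0.00547 in replicate 3 (others 0.123 to 0.144), the complex IV median -0.125 in replicate 3 (others 0.128 to 0.163) and the complex V median 0.190 in replicate 4 (others 0.143 to 0.149).

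K12R/K16R replicate 2, the one sample of strain MDY481 and the one of that mutant against MDY470, stood apart in 4 of the groups: CYC7 at -0.289 (others 0.320 to 0.404), SDH2 at 0.229 (others -0.0283 to 0.00755), COR1 at 0.630 (others 0.219 to 0.263) and COX5A minus COX5B at 0.660 (others -0.0859 to 0.0293). Its SDH1, ATP2 and QCR2 were 0.65, 0.76 and 0.64, the highest of the 4 samples, and its QCR7, COX5B and COX9 were -0.34, -0.27 and -0.47, the lowest. Without it the counts of members that rose were 26 with K16R and 35 in the quadruple mutant, but not all the same members with K16R: QCR7 passed (0.26, adjusted p = 0.0168 by limma), which it did not with the sample included.

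The effect of K16R differed with the number of other substitutions in SDH2 (0.241 per substitution) and ATP20 (0.323 per substitution), by the interaction term. The mutant means did not show a graded change. Adding K16R to K5R/K8R/K12R changed SDH2 by 0.71 and ATP20 by 1.11. In the other pairs of mutants the change was -0.23 to 0.23 for SDH2 and -0.13 to 0.16 for ATP20. ATP1, outside the rule for named members and looked at after its values were seen, was 2.41 in 1 sample of K8R/K12R/K16R and 0.73 to 0.85 in the others.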

How the results depend on the processing

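Of the counts of members that rose, the 35 in the quadruple mutant stayed between 33 and 35 in all 14 alternatives that gave a value. With arrays scaled to one spread and with quantile normalization the counts were 15 and 15 with K16R, 11 and 9 from 3 to 4 substitutions, 4 and 2 for a larger last step, 12 and 2 for K5R/K12R/K16R against the other K16R triples, and 9 and 4 for the quadruple mutant against K5R/K8R/K12R. In both, 1 member fell with K16R and 1 with the mean of the other substitutions. Only arrays against MDY470 gave 2 with K16R and 18 with the mean of the other substitutions; only arrays against MDY453 gave 8 for a larger last step and 9 for the K16R triples; a fit with no intercept gave 7 with K16R. The cause of these shifts was not tested. The share of all genes called was not kept for any alternative fit, so the counts in this section have no background beside them. COX5A minus COX5B with K16R was 0.191 (adjusted p = 0.0361) under quantile normalization, and with the mean of the others -0.131 (adjusted p = 0.211) in arrays against MDY470. CYC1 minus CYC7 with K16R was 0.0552 with no intercept, and in the quadruple mutant -0.155 scaled and -0.157 quantile normalized, no longer called.

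K16R effects whose sign turned were COX5B -0.141 scaled (adjusted p = 0.0276) and -0.191 quantile (adjusted p = 0.0119), both called, -0.0802 in MDY470 arrays and -0.0267 with no intercept; COX13 -0.0492, -0.0564, -0.0252 in MDY453 arrays, -0.0445 with no intercept and -0.0387 without the quadruple mutant; QCR7 -0.00427, -0.0424 and -0.143 in MDY470 arrays; SDH2 -0.00599 quantile, -0.144 in MDY470 arrays and -0.00808 without the quadruple mutant; ATP20 -0.171 in MDY470 arrays and -0.0247 without the quadruple mutant; COX5A -0.000107 quantile; CYC1 -0.00388 in MDY470 arrays; COX6 -0.0213 with no intercept. For the mean of the others these were SDH2 -0.0169 and ATP20 -0.106 in MDY470 arrays, ATP20 -0.00577 without the quadruple mutant, and CYC1 0.0307 and COX6 -0.0202 with no intercept.

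Leaving out 1 sample at a time gave 25 to 28 members with K16R, 33 to 35 with the mean of the others, 35 to 35 in the quadruple mutant, 30 to 33 from 3 to 4 substitutions, 23 to 27 for a larger last step, 15 to 25 for the K16R triples, 29 to 33 for the quadruple mutant against K5R/K8R/K12R and 0 to 0 that fell. COX5A minus COX5B ranged over 0.0279 to 0.0761 with K16R, -0.304 to -0.259 with the mean of the others and -0.883 to -0.571 in the quadruple mutant; CYC1 minus CYC7 over -0.0932 to -0.0603, -0.251 to -0.220 and -0.431 to -0.307. QCR7 was called with K16R in 21 of 54 such fits. With the bare bracketed number of the titles as a replicate block 24 members rose with K16R, 34 with the mean of the others and 33 from 3 to 4 substitutions. The arrays against MDY470 and the set without the quadruple mutant gave no value for that mutant, and the mutant model has no intercept to leave out.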

Other observations

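Some array titles carry a letter s whose meaning is not given in the sources used here. In 4 of 5 double mutants with such a sample, CYC1 was higher in it than in all other samples of the mutant: 0.42 against at most 0.03 in K5R/K8R, 0.56 against at most 0.25 in K5R/K12R, 0.51 against at most 0.09 in K5R/K16R and 0.44 against at most 0.04 in K8R/K16R. The same held for CYC1 in 1 of 4 single mutants, K16R (0.63 against at most 0.57), and in 0 of 4 triple mutants. For CYC7 the counts were 4 of 5, 3 of 4 and 0 of 4. No test was made, since each mutant holds 1 marked sample, and these groups were looked at after the values were seen.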
